A study of Mus musculus with 6 samples.

Results

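Macrophages and other leukocytes were followed in EGFP+ cardiac fibroblast libraries through 10 marker genes, *Ptprc*, *Cd68*, *Lyz2*, *C1qa*, *C1qb*, *C1qc*, *Csf1r*, *Cd74*, *Fcer1g* and *Tyrobp*, out of 28987 genes in the deposited table. The genes were chosen by name as leukocyte markers and were selected on their values between the sequencing runs named in the sample titles, so their levels by run are given as a description, without a test. The mice of all 6 libraries carried a MerCreMer cDNA, a tamoxifen-dependent Cre recombinase, in the *Postn* locus and a Cre-dependent EGFP reporter in the *Rosa26* locus. In the 3 libraries labelled Hsp47-deleted the mice were also Hsp47 flox/flox, which places loxP sites in the gene for a collagen chaperone, and the 3 control libraries lacked this allele. Mice were given tamoxifen by injection and in chow, underwent transverse aortic constriction (TAC) at 8 to 10 weeks of age to impose pressure overload, and were studied 4 weeks later, when ventricular cells were sorted by EGFP fluorescence into lysis reagent and their RNA was amplified. Cre is driven by *Postn*, a gene of activated fibroblasts, so EGFP marks that lineage, and no gate against leukocytes is described in the sources used here. Control replicates 3 and 4 were sequenced in a run called the first run here, whereas control replicate 2 and Hsp47-deleted replicates 1, 2 and 3 were sequenced in another, called the second run. Control replicate 2 was placed among the controls by its genotype label, since its title lacks the prefix that marks the others as controls, and every separation of run from label rests on this 1 library.

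Leukocytes carry *Ptprc*, which encodes the CD45 phosphatase, on their surface. Tissue macrophages, including those that reside in the heart, depend on signals through *Csf1r*, the receptor for the growth factors CSF1 and IL-34, engulf dying cells, and are the main source of the C1q subunits of complement. C1q is built from the products of *C1qa*, *C1qb* and *C1qc*, which assemble together to start the classical complement pathway. *Fcer1g* and *Tyrobp* encode small adaptors whose cytoplasmic motifs pass signals from Fc receptors and TREM receptors to the kinase Syk. *Lyz2* encodes lysozyme, *Cd68* a glycoprotein of late endosomes and lysosomes, and *Cd74* the invariant chain that escorts MHC class II molecules.

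All 10 genes were found in the table under their own symbols. In GENCODE release M21 of GRCm38, *C1qb*, *C1qc* and *C1qa* lie next to each other on chromosome 4, all on the minus strand, within 18675 bp from 136880129 to 136898803. *Lyz2* lies on chromosome 10 from 117277331 to 117282321, and the paralog *Lyz1* begins 5475 bp further on. *Fcer1g* (171229572 to 171234365) and *Ptprc* (138062861 to 138175708) are on chromosome 1, *Tyrobp* is on chromosome 7 from 30413760 to 30417585, and *Cd68* is on chromosome 11 from 69664213 to 69666153. Only *Lyz2* had a near-identical copy among the transcripts of other genes, *Lyz1*, at 95.8% identity over 96.0% of the transcript. *Csf1r* overlaps *Hmgxb3* on the opposite strand and a miRNA gene on its own strand, *Cd74* overlaps a miRNA gene, and *Ptprc* overlaps an unclassified transcript, so reads in those stretches can be shared.

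RefSeq promoter windows (250 bases before to 50 after the start, GRCm38.p6) were at hand for 6 of the 10 genes. The stretches upstream of the annotated start are shown for 4 genes that were higher in every library of the second run and for *Cd68*, which was not. Capitals mark GAGGAA and AGGAAG on either strand, which form the core of the PU box that is bound by the myeloid factor PU.1 (*Spi1*), and which overlap in GAGGAAG. They are, in order, chr4:136886201-136886450, chr4:136893066-136893164, chr10:117282322-117282522, chr1:171234366-171234599 and chr11:69666171-69666420, all from the minus strand and written 5′ to 3′.
C1qb: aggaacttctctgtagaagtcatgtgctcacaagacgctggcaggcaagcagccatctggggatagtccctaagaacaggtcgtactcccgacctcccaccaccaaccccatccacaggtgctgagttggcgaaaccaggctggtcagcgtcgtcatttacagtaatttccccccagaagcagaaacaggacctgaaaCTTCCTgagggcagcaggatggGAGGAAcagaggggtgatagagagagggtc
C1qc: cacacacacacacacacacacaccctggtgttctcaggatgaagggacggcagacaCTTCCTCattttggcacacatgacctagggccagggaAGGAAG
Lyz2: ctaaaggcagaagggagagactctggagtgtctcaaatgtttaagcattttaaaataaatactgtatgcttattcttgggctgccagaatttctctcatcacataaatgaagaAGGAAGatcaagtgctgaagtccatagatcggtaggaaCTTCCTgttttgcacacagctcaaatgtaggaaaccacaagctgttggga
Fcer1g: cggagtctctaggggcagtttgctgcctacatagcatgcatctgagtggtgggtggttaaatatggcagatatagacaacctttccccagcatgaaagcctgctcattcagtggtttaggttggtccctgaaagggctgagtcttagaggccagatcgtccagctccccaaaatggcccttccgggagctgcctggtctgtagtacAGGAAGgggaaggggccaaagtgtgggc
Cd68: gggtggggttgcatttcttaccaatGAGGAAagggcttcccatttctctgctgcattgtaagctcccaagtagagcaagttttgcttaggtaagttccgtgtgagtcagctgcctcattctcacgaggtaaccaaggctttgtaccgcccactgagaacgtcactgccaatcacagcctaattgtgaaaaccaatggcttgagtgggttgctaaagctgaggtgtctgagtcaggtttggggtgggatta
Over whole windows of 300 bases, AGGAAG was found in those of 5 of the 6 genes, all but *Cd68*, and GAGGAA in those of 4, *Ptprc*, *Cd68*, *C1qb* and *C1qc*. The same letters were found in 35.4% and 28.3% of 32851 windows of all genes. The letters were chosen after the windows were seen, and a match is not evidence of binding.

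Values are the deposited log2(value + 1), whose linear unit is not named, so levels are compared between libraries and not between genes. Ratios and sums over genes are given in the linear unit only to be set side by side across libraries. Of the 10 genes, 9 had a linear mean of at least 1 over the 6 libraries and were tested among 15109 genes. For 3 of them, *C1qa*, *C1qb* and *C1qc*, the controls of the first run averaged under 1, so these passed only through the libraries of the second run. *Ptprc* was listed at 0 in all 6 libraries and was not tested. Of 21062 protein-coding genes, 2676 were likewise listed at 0 in every library. The number of reads behind the values is unknown. In control replicates 3 and 4, 34.8% and 33.7% of all genes were listed at 0, against 27.2% to 29.1% in the second run. The median log2 value of the tested genes was 2.75 and 2.995 there, against 3.128 to 3.434 in the second run. The bearing of this on the markers was not tested.

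The targeted gene was examined first. *Serpinh1*, which encodes Hsp47, stood at 6.28, 6.10 and 7.60 on the log2 scale for control replicates 3, 4 and 2 and at 6.87, 6.67 and 6.66 for Hsp47-deleted replicates 1, 2 and 3, a difference of 0.072 (standard error 0.43, limma, BH-adjusted p = 0.947). It was not lower in the pooled comparison, and it was lower by 0.87 than in control replicate 2 alone, so the groups are called by their labels throughout, directions included. The paper reports, by Western blot, that Hsp47 protein was efficiently lost from sorted EGFP+ cells of this genotype. Its loxP sites target exon 6, whereas the values here are RNA levels per gene. They measure neither that exon alone nor the protein. The 16 fibroblast and myofibroblast genes were all above the filter. Their summed linear level was 10435 and 9879 in control replicates 3 and 4 and 13243 in control replicate 2, so the controls differed by run. It lay between 15981 and 17737 among libraries labelled Hsp47-deleted. Of the 16 genes, *Postn*, the locus that drives Cre, rose by 4.41 (limma, BH-adjusted p = 0.00337) and *Cthrc1* by 2.02 (limma, BH-adjusted p = 0.0485, and 0.0681 with the run in the fit).

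Of the 2 adaptor genes, *Fcer1g*, the Fc receptor γ chain, was at 2.19 and 0.43 in control replicates 3 and 4, at 4.47 in control replicate 2, and at 4.23, 4.48 and 4.32 for Hsp47-deleted replicates 1, 2 and 3. All 4 libraries of the second run lay above both of the first, and control replicate 2 lay within the range of the 3 libraries labelled Hsp47-deleted. *Tyrobp*, the DAP12 adaptor of TREM and NK cell receptors, was at 0.82 and 1.78, at 4.33, and at 4.24, 3.86 and 4.02 in the same order. Control replicate 2 was here the highest library of all. In the linear unit the mean of the second run was 10.1 times that of the first for *Fcer1g* and 10.3 times for *Tyrobp*. The 2 controls of the first run differed from each other in opposite ways, with *Fcer1g* higher in replicate 3 (3.57 against 0.348 in the linear unit) and *Tyrobp* higher in replicate 4 (2.43 against 0.76).

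The macrophage growth factor receptor *Csf1r* (chromosome 18, 61100598 to 61132149) showed a smaller step. It was listed at 0.98 and 1.06 for control replicates 3 and 4, at 2.25 for control replicate 2, and at 2.08, 2.62 and 2.31 for Hsp47-deleted replicates 1, 2 and 3. The 2 controls of the first run differed by 0.081, and the linear mean of the second run was 3.93 times theirs.

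The C1q genes shared the split by run. *C1qa* was listed at 0 in control replicates 3 and 4, and was at 1.80 in control replicate 2 and at 1.79, 1.82 and 1.68 for Hsp47-deleted replicates 1, 2 and 3. *C1qb* was at 1.18 and 0.12, at 3.50, and at 3.27, 3.28 and 3.18 in the same order, and *C1qc* was at 0.37 and 0.20, at 2.95, and at 2.82, 3.06 and 2.82. For each of the 3 subunits, the 4 libraries of the second run lay above both of the first and close to each other, with a standard deviation of 0.065 for *C1qa*, 0.14 for *C1qb* and 0.12 for *C1qc*. The linear ratio of *C1qb* to *C1qc* ran from 1.19 to 1.54 over those 4 libraries, and that of *C1qa* to *C1qc* from 0.346 to 0.404. In control replicates 3 and 4, where both values were low, the ratio of *C1qb* to *C1qc* was 4.34 and 0.572.

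*Lyz2* had the largest step between the runs among the 9 genes tested on the log2(value + 1) scale, whereas in the linear unit the ratio of the runs was larger for *C1qc*, at 29.8, and *C1qa* was listed at 0 in the first run. It stood at 2.23 and 1.20 on the log2 scale for control replicates 3 and 4, at 5.85 for control replicate 2, and at 4.82, 5.45 and 4.96 for Hsp47-deleted replicates 1, 2 and 3, so that control replicate 2 was the highest library. The linear mean of the second run was 15.8 times that of the first. *Lyz1*, whose transcript is nearly identical, was at or under 0.58 in every library, so the values of *Lyz2* were not mirrored by the paralog, although the way reads were shared between the 2 genes is not known.

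*Cd74* (chromosome 18, 60803848 to 60812652), the class II invariant chain, was at 3.36 and 1.80 in control replicates 3 and 4, at 6.19 in control replicate 2, and at 5.78, 6.13 and 6.01 for Hsp47-deleted replicates 1, 2 and 3. The linear mean of the second run was 11.0 times that of the first. *H2-Aa*, the class II α chain, named here after its values were seen, was at 2.91 and 1.17, at 5.64, and at 5.46, 5.97 and 5.30. The linear ratio of *Cd74* to *H2-Aa* lay between 1.12 and 1.99 in all 6 libraries, while *Cd74* itself ranged from 2.49 to 71.9.

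*Cd68* did not share this order. It was at 4.72 and 6.01 in control replicates 3 and 4, at 4.33 in control replicate 2, and at 5.83, 5.98 and 5.73 for Hsp47-deleted replicates 1, 2 and 3. The lowest library was thus the control of the second run and the highest was a control of the first run, and the linear means of the runs were close, at a ratio of 1.06. The summed linear level of the 10 genes was 45.2 and 71.5 in control replicates 3 and 4 and from 193 to 233 in the second run. Without *Cd68* the sum was 19.8 and 7.9 against 137 to 192.

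**Figure D1:**
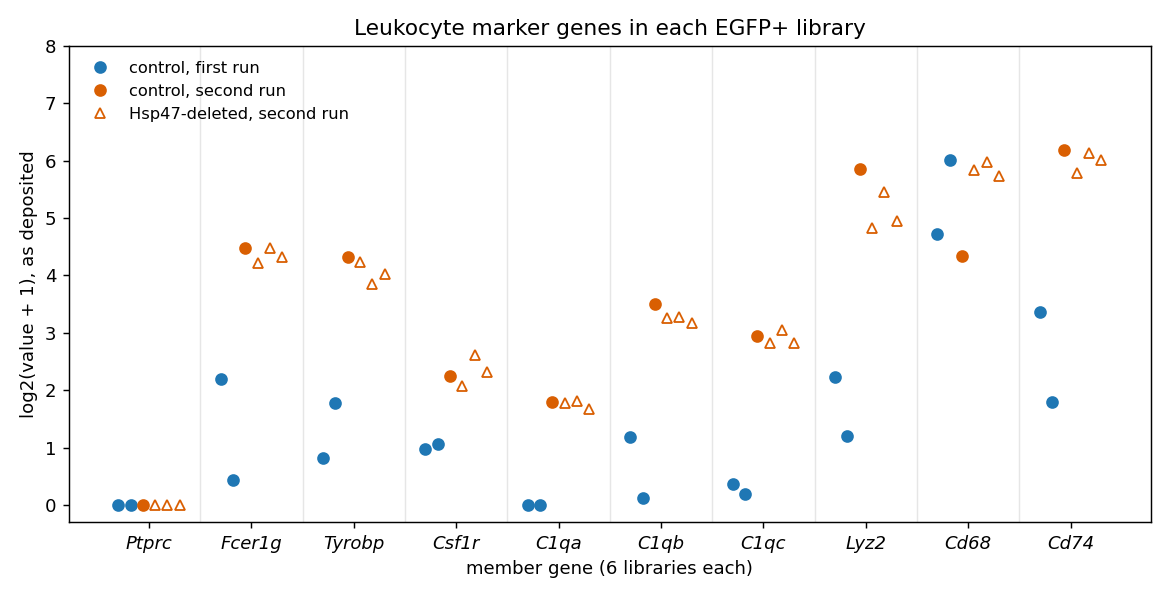
Deposited log2(value + 1) of the 10 marker genes, 1 point per library and 6 per gene, with circles for controls, open triangles for the libraries labelled Hsp47-deleted, blue for the first run and orange for the second. *Ptprc* is at 0 throughout, *Cd68* mixes the runs, and for the other 8 genes the 4 libraries of the second run lie above both of the first.

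The contrast of runs could be read among controls of 1 genotype, with 1 library against 2. Control replicate 2 lay above the mean of control replicates 3 and 4 by at least 1 on the log2 scale for 8 of the 9 genes, by 1.23 for *Csf1r* to 4.14 for *Lyz2*, and below it by at least 1 for *Cd68* (-1.03). Over all tested genes, 21.7% were higher by that margin and 13.9% were lower. The median of the 9 genes was 2.85 against 0.11 for all tested genes. All 4 libraries of the second run were above both of the first for 8 of the 9 genes, and for 35.0% of all tested genes. These counts restate how the genes were chosen. The run and anything else that differed between these libraries cannot be told apart here. In bulk libraries, fewer cells of a type and less RNA per cell cannot be told apart either.

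Within the second run, the labels were compared as 3 libraries against 1 control, and the differences are given here without a test. The mean of the libraries labelled Hsp47-deleted was within 0.5 of control replicate 2 for 7 of the 9 genes, with differences from -0.29 for *Tyrobp* to 0.085 for *Csf1r*. *Lyz2* was lower by 0.78, and *Cd68* was higher by 1.51, the only one of the 9 past 1 in either direction, against 11.6% of all tested genes. Control replicate 2 lay within the range of the 3 libraries labelled Hsp47-deleted for 4 genes (*Fcer1g*, *Csf1r*, *C1qa* and *C1qc*), above it for 4 and below it for *Cd68*. The median difference of the 9 genes was -0.135, against 0.29 for all tested genes.

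**Figure D2:**
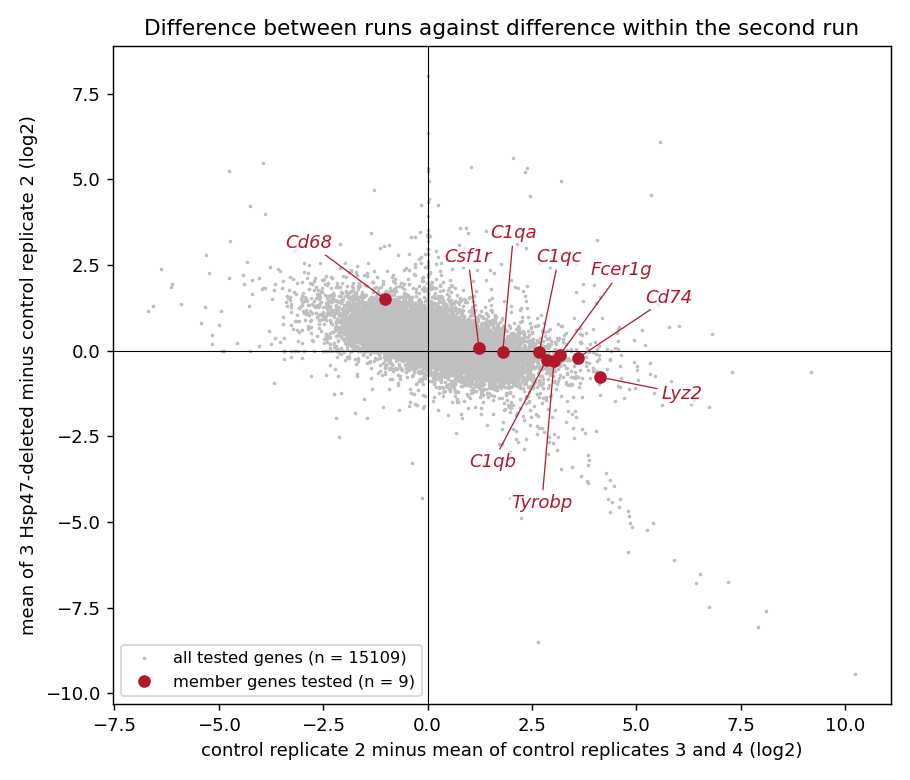
For each of 15109 tested genes (gray) and the 9 marker genes (red), the horizontal axis gives control replicate 2 minus the mean of control replicates 3 and 4 and the vertical axis gives the mean of the 3 libraries labelled Hsp47-deleted minus control replicate 2, both in log2 units. Both axes use control replicate 2, so a downward slope is built in. The markers other than *Cd68* lie from 1.23 to 4.14 to the right and from -0.78 to 0.09 in height, and *Cd68* lies at -1.03 and 1.51.

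The marker genes varied little between the 3 libraries labelled Hsp47-deleted. Their standard deviations there ran from 0.055 for *C1qb* to 0.33 for *Lyz2*, with a median of 0.14, and all 9 were under the median of all tested genes, 0.36. Such a spread was common, since 6724 of 15109 tested genes were at or under that of *Lyz2*. The pseudocount of 1 also narrows the spread of low genes such as *C1qa*. Between the 3 controls, which span both runs, the median standard deviation was 1.73 against 0.53 for all tested genes. That spread holds the step between the runs on which the genes were chosen, so it restates the choice. The 2 controls of the first run stood far apart for several markers. Control replicate 3 was higher than replicate 4 by 1.76 for *Fcer1g*, 1.56 for *Cd74*, 1.07 for *C1qb* and 1.03 for *Lyz2*, and it was lower by 1.29 for *Cd68* and 0.96 for *Tyrobp*.

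When the 3 libraries labelled Hsp47-deleted were compared with all 3 controls, all 9 genes had a higher mean, but none of the 9 passed the test and for none of them did the groups separate. *Cd74* averaged 3.79 ± 2.22 (SD, n = 3) among controls against 5.98 ± 0.18 (SD, n = 3) under the other label, a difference of 2.19 (standard error 0.96, limma, BH-adjusted p = 0.331). *Tyrobp* averaged 2.31 ± 1.82 (SD, n = 3) against 4.04 ± 0.19 (SD, n = 3), a difference of 1.73 (standard error 0.80, limma, BH-adjusted p = 0.345). *Lyz2* differed by 1.98 (standard error 1.05, limma, BH-adjusted p = 0.39) and *Cd68* by 0.82 (standard error 0.45, limma, BH-adjusted p = 0.396). The other 5 differences ran from 0.91 for *Csf1r* to 1.97 for *Fcer1g*. At a BH-adjusted limma p under 0.05, 0 of the 9 genes were called, against 37 genes or 0.245% of all tested genes, and 1 of the 9 had an unadjusted p under 0.05, with or without the trend, against 15.2% of all tested genes. That gene was *C1qc*, which passed the filter only through the second run, so its p supports nothing about the labels. The libraries of the 2 groups did not overlap for 0 of the 9 genes and for 19.8% of all tested genes. The median difference of the 9 genes was 1.73 and that of all tested genes was 0.35. With the libraries centred on their medians these became 1.31 and -0.060. This comparison shares its libraries with the split by run.

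With sequencing run as a covariate, the differences between the labels rest on the second run, and the spread also draws on the pair of controls in the first, which leaves 3 residual degrees of freedom. Of the 9 genes, 7 then had a lower mean in the libraries labelled Hsp47-deleted, with differences from -0.040 for *C1qa* to -0.78 for *Lyz2*, and 0 were called by limma, against 0.331% of all tested genes. For *Cd74* the difference was -0.21, with a 95% interval from -1.58 to 1.15, and for *Csf1r* it was 0.085, with an interval from -0.87 to 1.04. *Cd68* was the only gene whose interval did not include 0, at 1.51 (0.32 to 2.71), and it was not called (limma, BH-adjusted p = 0.649). With control replicate 2 left out, run and label coincide, so that this contrast is the one the genes were chosen on. The limma calls it gave (8 of the 9 genes as higher, all but *Cd68*, against 16.4% of all tested genes) restate that choice and are no test of the labels. The differences of these 8 ran from 1.32 for *Csf1r* to 3.39 for *Cd74*.

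**Figure D3:**
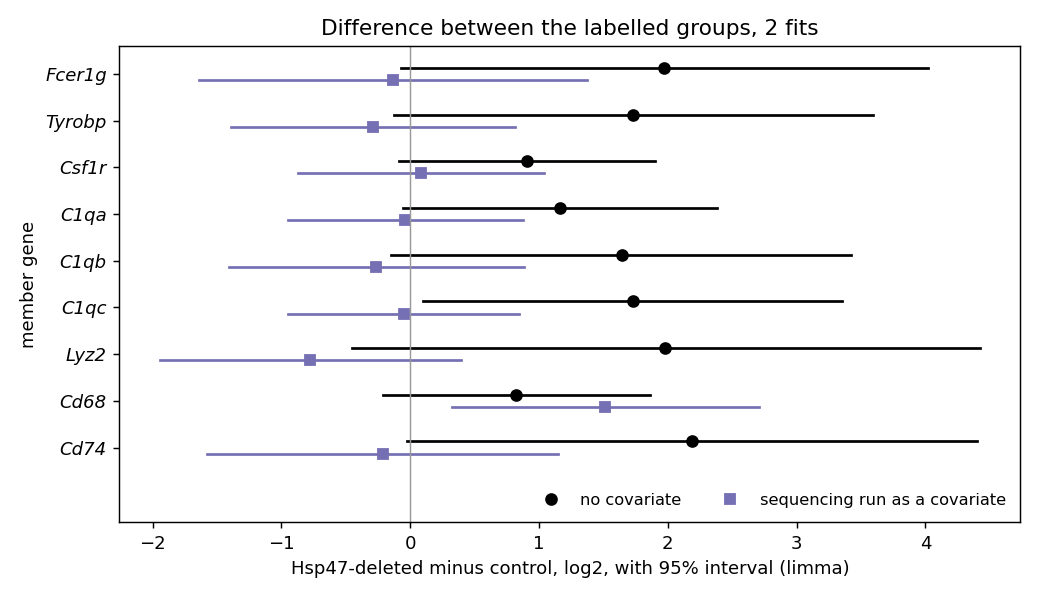
Difference between the libraries labelled Hsp47-deleted and the controls for the 9 tested marker genes, in log2 units with 95% limma intervals, without a covariate (black circles) and with sequencing run as a covariate (purple squares). Without it all 9 differences are above 0 and only the interval of *C1qc*, which passed the filter only through the second run, excludes 0. With it 7 are below 0 and only the interval of *Cd68* excludes 0.

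Other genes of the same pathways were read from lists that, like the markers, were chosen with earlier results of these data known. For each list, the count past a margin of 1 between control replicate 2 and control replicates 3 and 4 is given. It stands beside the 21.7% of all tested genes as a description, without a test. Over 8 lists of leukocyte genes outside the 10 markers, 100 of 151 genes were tested and 51 were higher by that margin in control replicate 2, with a median of 1.03. All 4 libraries of the second run lay above both of the first for 66 of the 100. Between the labels, limma called 0 of the 100, with 23 at an unadjusted p under 0.05, beside the 15.2% of all tested genes against which the like counts below can be read. The genes lower by that margin were *Spp1*, *Itgam*, *Cd247*, *Cd3d* and *Was*, named after their values were seen, with differences from -1.69 for *Spp1* to -1.01 for *Was*. *Itgam*, the αM integrin of myeloid cells, was at 3.00 and 3.94 in control replicates 3 and 4 and at 2.05 to 2.91 in the second run, so that here the first run was the higher.

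Among 20 tested genes of macrophages and monocytes, 6 were higher by the margin and 2 lower, with a median of 0.42. None was called between the labels by limma, 4 having an unadjusted p under 0.05. *Cd14*, the coreceptor for lipopolysaccharide, was at 0.74, 0.51 and 0.98 in control replicates 3, 4 and 2 and at 1.62, 2.59 and 1.69 for Hsp47-deleted replicates 1, 2 and 3 (difference 1.23, standard error 0.39, limma, BH-adjusted p = 0.282). The chemokine gene *Ccl3* followed at 1.32 (limma, BH-adjusted p = 0.293). *Cd14* differed in this from the 8 markers, its control of the second run lying nearer to the other controls. The macrophage marker *Adgre1*, which encodes F4/80 and is named after its values were seen, stayed under the filter, at 0.10 to 0.88 in the 6 libraries.

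Pan-leukocyte genes of signaling and the cytoskeleton had 12 of 21 tested genes higher by the margin and 1 lower, with a median of 1.30. *Laptm5*, a lysosomal membrane protein of blood cells, was at 1.10 and 0.54 in control replicates 3 and 4, at 3.89 in control replicate 2, and at 3.98, 4.18 and 4.08 for Hsp47-deleted replicates 1, 2 and 3. The tetraspanin gene *Cd37* was at 0.44 and 0, at 2.97, and at 3.18, 3.02 and 2.76. These had the smallest limma p of the list between the labels (BH-adjusted p = 0.294 and 0.313), and 0 of the 21 were called, with 6 at an unadjusted p under 0.05. With run as a covariate 1 was called, the adaptor gene *Lcp2*, named after its values were seen, at -3.04 (limma, BH-adjusted p = 0.0488), which was at 5.17 in control replicate 2 and at 1.28 to 2.55 in the other 5 libraries.

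For the partners of the adaptors, the immunoreceptors and kinases that work with *Tyrobp* or *Fcer1g*, 10 of 22 genes in the table passed the filter, and 2 were higher by the margin and 0 lower, with a median of 0.19. The Fc receptor gene *Fcgr4* was at 1.30 and 1.87 in control replicates 3 and 4, at 2.19 in control replicate 2, and at 2.08, 2.76 and 2.52 for Hsp47-deleted replicates 1, 2 and 3. *Plcg2*, a phospholipase downstream of Syk, stayed between 0.36 and 1.51. Between the labels limma called 0 of the 10, and 0 had an unadjusted p under 0.05. Both adaptors thus showed a step past the margin that 8 of these 10 genes did not. Of 18 tested *Csf1r* ligands and myeloid transcription factors, 4 were higher and 4 lower by the margin, with a median of 0.094, and limma called 0 between the labels with 4 at an unadjusted p under 0.05. *Csf1*, the ligand of *Csf1r*, named after its values were seen, was at 7.76 and 8.10 in control replicates 3 and 4, at 6.05 in control replicate 2, and at 6.29, 6.61 and 6.90 for Hsp47-deleted replicates 1, 2 and 3. The first run was thus the higher for *Csf1* and the lower for its receptor. *Klf4* and *Cebpa* had the smallest p of this list between the labels, with differences of 1.57 and 1.31 (limma, BH-adjusted p = 0.274 for both).

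Of 11 tested genes of MHC class II presentation, 5 were higher by the margin and 0 lower, with a median of 0.69. *Ifi30*, a lysosomal thiol reductase, was at 4.01, 4.01 and 4.67 in control replicates 3, 4 and 2 and at 5.74, 6.01 and 6.64 for Hsp47-deleted replicates 1, 2 and 3 (difference 1.90, standard error 0.36, limma, BH-adjusted p = 0.114). Its groups did not overlap, unlike those of *Cd74*. *H2-Oa* followed at 1.16 (limma, BH-adjusted p = 0.283). Limma called 0 of the 11, and 5 had an unadjusted p under 0.05. Of 11 partners and inhibitors of C1q, all tested, 3 were higher by the margin and 0 lower, with a median of 0.89, and limma called 0 with 3 at an unadjusted p under 0.05. *Calr* and *Lrp1*, which bind C1q on the cell surface, had differences between the labels of 0.86 and 0.73 (limma, BH-adjusted p = 0.283 and 0.317). Of 6 lysozyme genes, *Lyz2* and *Lyzl6* were tested, the latter between 0.97 and 1.63 in all libraries.

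Lists of other leukocytes were read by run as well, and the part of such cells in the levels of the 10 markers was not tested. Of 10 tested genes of B and plasma cells 8 were higher by the margin in control replicate 2, with a median of 1.77. The summed linear level of all 12 genes of that list was 4.4 to 6.9 in the first run and 585 to 1274 in the second. In log2 units *Igkc* (8.903 to 10.07) and *Ighm* (6.311 to 7.365), named after their values were seen, stood highest among them in the second run. Sums here and for the lists below run over all genes of a list, tested or not. *Pax5*, a B cell transcription factor, had another pattern, with 0.80, 0.60 and 1.10 in control replicates 3, 4 and 2 and 2.56, 2.12 and 2.22 for Hsp47-deleted replicates 1, 2 and 3 (limma, BH-adjusted p = 0.187). *Cd79b* differed by 1.58 between the labels (limma, BH-adjusted p = 0.306). Genes of neutrophils and mast cells were higher for 8 of 11 tested, with a median of 2.36 and a sum of 20.7 to 22.7 against 79.0 to 405, led in p by *S100a8* (limma, BH-adjusted p = 0.41) and *Ngp* (0.433). Of 16 tested genes of T and NK cells 10 were higher and 2 lower, with a median of 1.33 and a sum of 31.4 to 65.1 against 64.8 to 83.5. *Gzmb* was listed at 0 in both controls of the first run and was at 3.13 in control replicate 2, and *Gzma* was at 0.35, 0 and 2.43. Only 2 of 10 dendritic cell genes were tested, *Zbtb46* and *Siglech*, and neither was higher by the margin (median -0.47). Limma called 0 genes of these lists between the labels, with 5 of the B and plasma cell genes, 3 of the T and NK cell genes and 0 of the others at an unadjusted p under 0.05.

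Lists of nonleukocyte cells were read in the same way. Endothelial genes were higher by the margin for 11 of 13 tested, with a median of 2.01 and a summed linear level of 131 to 309 in the first run and 363 to 871 in the second, *Cldn5* and *Pecam1* having the smallest limma p between the labels (BH-adjusted p = 0.286 and 0.327). Cardiomyocyte genes were higher for 9 of 12, with a median of 1.71 and sums of 62.7 to 116 and 206 to 340. *Ckm* and *Ttn* had the smallest limma p between the labels (BH-adjusted p = 0.224 and 0.28). Neither was past the margin between the runs, control replicate 2 being higher by 0.11 and 0.75. Erythroid genes were higher for 5 of 5, with a median of 3.52 and sums of 20.4 to 113 and 218 to 857. The hemoglobin genes *Hbb-bs* and *Hbb-bt* had the smallest limma p between the labels (BH-adjusted p = 0.421 and 0.446). Mural cell genes were higher for 3 of 8, with a median of 0.60. *Pdgfrb* and *Kcnj8* had the smallest limma p between the labels (BH-adjusted p = 0.283 and 0.388), with differences of 1.49 and -0.88. Between the runs *Kcnj8* was not past the margin, at 0.14. Of these 4 lists limma called 0 genes between the labels, with 2 endothelial, 4 cardiomyocyte, 0 erythroid and 1 mural gene at an unadjusted p under 0.05. Fibroblast genes were higher for 4 of 16, with a median of 0.34. For the 9 tested markers the count was 8 with a median of 2.85.

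**Figure D4:**
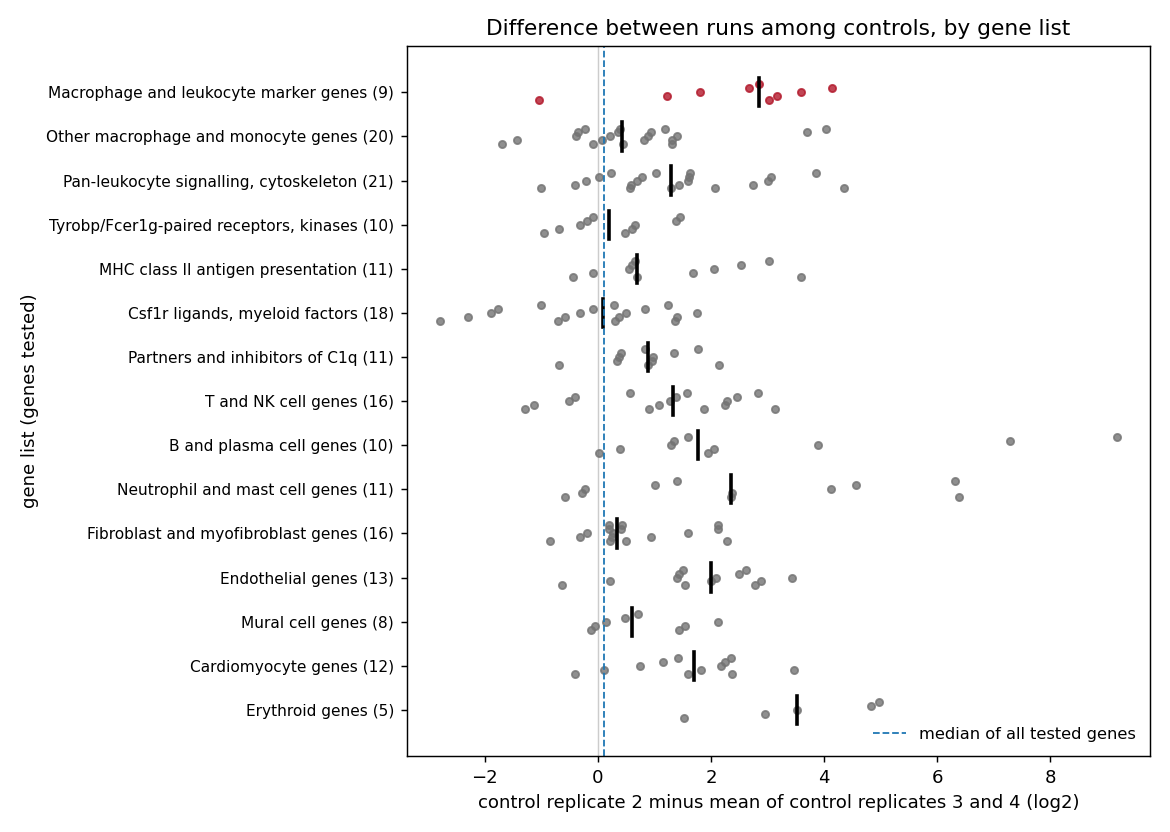
Control replicate 2 minus the mean of control replicates 3 and 4, in log2 units, for each tested gene of 15 lists (dots, the marker genes in red), with the median of each list as a black bar and the median of all tested genes as a dashed line at 0.11. The medians run from 0.09 for the *Csf1r* ligands and myeloid factors to 2.85 for the markers and 3.52 for the erythroid genes, the lysozyme and dendritic cell lists with 2 tested genes each not being shown.

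The genes whose levels most resembled the markers were sought by the Pearson r between the log2 value of each gene and the mean z-score of the 9 markers over the 6 libraries. The 6 libraries fall into 2 runs and share them with the markers, so r is a description of that step. The mean z-score was -1.08 and -1.17 in control replicates 3 and 4, 0.47 in control replicate 2, and 0.53, 0.71 and 0.54 for Hsp47-deleted replicates 1, 2 and 3. The 10 genes with the highest r were *Pou2af1*, *Oaf*, *Gzmb*, *Igkj2*, *S100a10*, *Cldn5*, *Lhpp*, *Gcsh*, *Ms4a1* and *Prkcsh*, with r from 0.997 to 0.999. *Pou2af1*, *Igkj2* and *Ms4a1* belong to B cells, *Gzmb* to cytotoxic lymphocytes and *Cldn5* to endothelial tight junctions. The others, *Oaf*, *S100a10*, *Lhpp*, *Gcsh* and *Prkcsh*, were not assigned to a cell type. None of the 10 is among the macrophage genes listed here. *S100a10*, an annexin partner, was at 6.70 and 6.43 in control replicates 3 and 4, at 8.81 in control replicate 2, and at 8.80, 8.98 and 8.80 for Hsp47-deleted replicates 1, 2 and 3. An r of at least 0.95 was reached by 1001 of 15100 genes, or 6.63%. Among the markers themselves, r with their own mean was 0.949 to 0.997 for 8 genes and 0.11 for *Cd68*.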

How the data were processed

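RNA-seq of EGFP+ cells was carried out by the authors in 6 libraries, 3 per group. What the authors deposited is a single matrix of log2(value + 1) with 28987 genes. The labels name kallisto and mm10, without a version or annotation, and the study's text names AltAnalyze. The deposited table also holds group means, fold changes, p-values and adjusted p-values of the authors' own comparison, which were not used. Values are not counts, so the depth is unknown and no interval that needs it is given.

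The 10 members and all gene lists were chosen with earlier results of these data known. Log2 values were used as deposited, and genes with a linear mean of at least 1 over the 6 libraries were kept (15109). Labels were set against each other by limma (version 3.58.1, R 4.3.3), using lmFit and a trended eBayes, two-sided, without a covariate, with Benjamini-Hochberg (BH) adjustment over all tested genes and a threshold of 0.05. The fit was tested on simulated data that held no difference between runs, so that test does not cover the overlap of run and label. With 3 libraries against 3, an exact permutation test cannot give a p under 0.10. Nothing in the labels states that the libraries came from separate mice, so p-values measure the spread between these libraries. Log2 differences include the pseudocount of 1 and understate changes of low genes.

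Named genes were the members, *Serpinh1*, *Lyz1*, the 2 genes of each list with the smallest p, and the 10 genes most like the members, and others are said to be named after their values were seen. Lists were matched by the Ensembl ID in GENCODE release M21 (27458 of 28987 IDs matched). Near-identical copies were sought with minimap2 2.31-r1302. Alternatives were sequencing run as a covariate, the second run alone, the replicate block, no filter or one at 5, a pseudocount of 0.1 or of 5, centring on medians, quantile normalization, limma without the trend or with robust estimation, and leaving out each library.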

Additional observations from a re-analysis of the deposited data

How the results depend on the processing

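Of 16 alternatives with a test, 14 left each tested marker on the same side of 0 and uncalled by limma (6 of the 9 markers passed a filter at a mean of 5). With sequencing run as a covariate, the difference between the labels turned below 0 for *Lyz2* (-0.78), *C1qa* (-0.040), *C1qb* (-0.26), *C1qc* (-0.051), *Cd74* (-0.21), *Fcer1g* (-0.135) and *Tyrobp* (-0.29), and the median of the 9 tested markers moved from 1.73 to -0.135, the value it also had in the second run alone, which was not tested. That fit takes the difference from the second run. Leaving out 1 library in turn gave from 0 to 8 markers called and from 8 to 2768 genes called in all, against 37, the highest of both being without control replicate 2, where run and label coincide and the calls restate how the markers were chosen. The median of the markers ran from 1.04 to 2.62 over these fits. With the 37 genes called as the reference, 18 were called with the libraries centred on their medians, 17 with quantile normalization and 16 with a pseudocount of 0.1, and the cause was not tested. Both groups hold replicates numbered 2 and 3, but the labels tie neither pair, and the deviations of same-numbered libraries correlated at 0.156 and 0.228. With the replicate block, which left 1 residual degree of freedom, 0 genes and 0 markers were called by limma, with 1545 genes and 1 marker at an unadjusted p under 0.05, and the median of the markers was 1.16. Of 272 medians of the other lists, counted over every list and alternative, 214 moved by less than the spread between libraries. The unnamed unit and unknown depth limit all values near 0, those of *C1qa* above all.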
